A study of Mus musculus with 24 samples.

Results

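The miR-17~92 and miR-106b~25 clusters are a pair of related polycistronic miRNA genes, each transcribed as a single primary RNA from which several mature miRNAs are cut. Their members were chosen by name alone: every mouse probe that names miR-17, miR-18a, miR-19a, miR-19b, miR-20a, miR-92a, miR-106b, miR-93 or miR-25, star strands left out. This gave 9 of the 566 mouse miRNA probes of the nCounter assay, 6 for miR-17~92 (mmu-miR-18a, mmu-miR-19a, mmu-miR-19b, mmu-miR-92a and the joint probes of mmu-miR-17 and mmu-miR-20a) and 3 for miR-106b~25 (mmu-miR-106b, mmu-miR-93 and mmu-miR-25). All 9 were on the panel, and none of their 9 passenger strands was analysed here. In the assay, color-coded probes bind each miRNA and are counted singly, so a value is a count of molecules in 1 lane and not of sequencing reads.

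The samples follow a mouse model of mammary cancer in which JygMC(A)-GFP/Luc cells, a tumor line from a wild mouse tagged with eGFP and luciferase, were placed in the mammary fat pad of female BalbC nude mice and spread to the lungs by themselves. Areas were cut by laser from carcinoma regions (n = 5) and EMT-like, spindle-cell regions (n = 7) of primary tumors (PT, n = 12), from lung metastases (n = 4), and from normal mammary gland (NMG, n = 2) and normal lung (n = 2) of BalbC nude mice, and the same cells were also grown as a monolayer (n = 2) and as 3D-spheres of the third generation on low-adherence plates (n = 2). All tumor, metastasis and culture samples therefore stem from 1 cell line with 1 pair of reporters. Carcinoma, EMT-like and metastasis samples partly came from the same animals, a single label naming 3 animals was given to 1 carcinoma, 1 EMT-like and 1 metastasis sample, and NMG and normal lung came from the same 2 animals.

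Members of both clusters share ancestry and work by the same rule as other miRNAs: bases 2 to 8, the seed, pair with target messenger RNAs, whose translation and stability then fall. The miR-17~92 primary transcript is a known transcriptional target of MYC and E2F, and the miR-106b~25 cluster lies in an intron of Mcm7, which encodes a helicase subunit used in DNA replication and is itself regulated by E2F. Both clusters are known for high levels in proliferating and tumor cells, where the cell cycle inhibitor p21 and the proapoptotic protein BIM are among their targets.

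The mature sequences are shown because the probes follow 4 seed groups that cut across the clusters, and because near-identical members decide what a probe can tell apart. Sequences and positions are those of RefSeq on GRCm38.p6, written 5′ to 3′ with the seed in capitals, and all 9 members were matched. The miR-17~92 genes span 836 bases at chr14:115043671-115044506 on the plus strand, and the miR-106b~25 genes span 498 bases at chr5:138165321-138165818 on the minus strand. The AAAGUGC seed is shared by members of both clusters and by miR-106a and miR-20b of the paralogous cluster at chrX:52741693-52742567, on the minus strand.
miR-17-5p: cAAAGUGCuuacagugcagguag
miR-20a-5p: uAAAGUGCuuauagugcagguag
miR-106b-5p: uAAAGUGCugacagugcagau
miR-93-5p: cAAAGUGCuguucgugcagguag
miR-106a-5p: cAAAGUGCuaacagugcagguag
miR-20b-5p: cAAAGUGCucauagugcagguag
The miR-18a seed, AAGGUGC, is close to that of the first group.
miR-18a-5p: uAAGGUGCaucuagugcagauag
The miR-19 seed, GUGCAAA, occurs in miR-17~92 but not in miR-106b~25.
miR-19a-3p: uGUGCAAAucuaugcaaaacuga
miR-19b-3p: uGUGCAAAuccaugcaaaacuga
The AUUGCAC seed joins the last member of each cluster.
miR-92a-3p: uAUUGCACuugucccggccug
miR-25-3p: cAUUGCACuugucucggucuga

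With positions counted from 1 at the 5′ end, miR-17 and miR-106a differed at 1 base (U10A) and miR-20a and miR-20b at 2 bases (U1C and U10C), and each of these pairs was read by a single joint probe, called miR-17/miR-106a and miR-20a/miR-20b here. miR-19a and miR-19b differed at 1 base (U11C) and had a probe each, and cross-reading between these probes was not tested. The mature miR-19b and miR-92a are encoded identically on chromosomes 14 and X, so their probes cannot assign a level to 1 cluster. The last members, miR-92a and miR-25, differed at 3 of the 21 positions compared.

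The deposited values were counts minus the background of the lane and had not been scaled between lanes. Sums over the mouse miRNAs ran from 111602 to 184501 in primary tumors and 62583 to 115278 in metastases, against 525697 to 560247 in NMG, 590022 and 2335745 in normal lung, and 26420 to 46507 in cultures. Values below are normalized by trimmed mean of M-values (TMM) unless called deposited. The 2 monolayer lanes stood apart from each other, and every monolayer result is given with and without 1 of them where that mattered. Epithelial marker miRNAs (miR-200 family, miR-203, miR-205) summed to 930 to 5385 in carcinoma and 59.4 to 1758 in EMT-like areas. The normal tissues held far more endothelial miR-126 (10971 to 70141, against 819 to 3114 in tumor and metastasis lanes). In bulk samples fewer cells of a type and less RNA per cell cannot be told apart. Probes differ in capture, so levels are compared between lanes for a probe and not between probes.

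Of the 9 members, 4 (miR-17/miR-106a, miR-20a/miR-20b, miR-93 and miR-25) exceeded the detection limit, the mean plus 2 SD of the lane's 6 negative controls, in all 24 lanes. miR-19a, miR-19b and miR-106b did so in 20 lanes, all of them tissue, and in none of the 4 culture lanes. miR-92a was above its limit in 2 lanes, both of normal lung, where the deposited values were 54 and 85. miR-18a was above it in none of 24 lanes, with deposited values from -14 to 15. The other 7 members are the ones whose levels can be followed through the tissues.

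**Figure D1:**
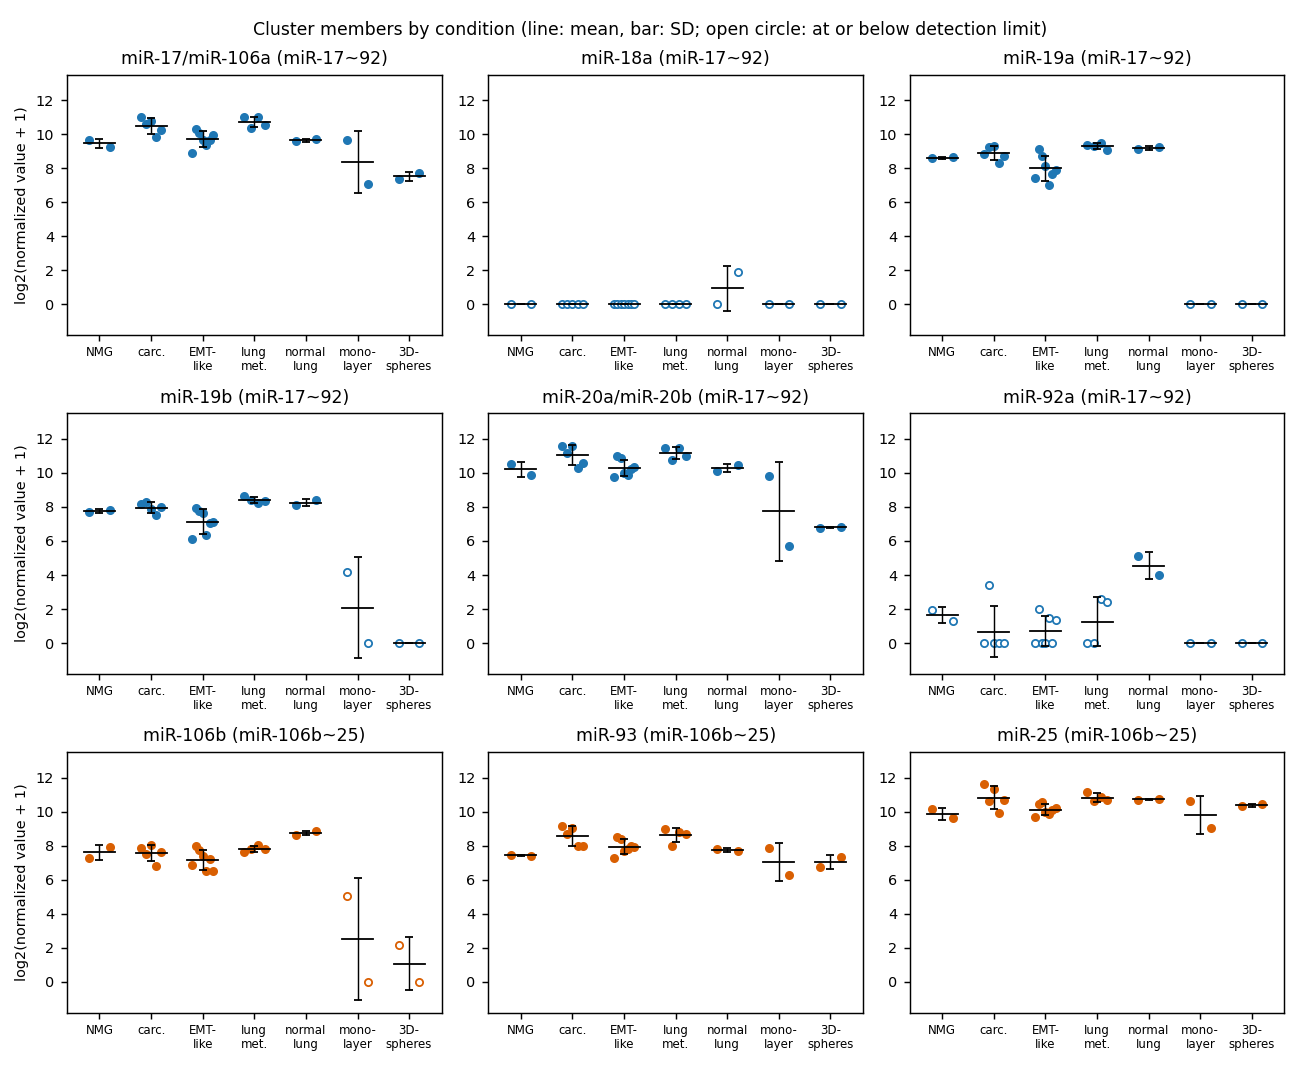
Each panel shows 1 member as log2(normalized value + 1) on the vertical axis for the 24 lanes grouped by condition, with blue for miR-17~92, orange for miR-106b~25, lines for means, bars for SD and open circles for lanes at or below the detection limit. The panels of 7 members lie in a common range in the 20 tissue lanes, whereas miR-19a, miR-19b and miR-106b fall to open circles in all 4 culture lanes and miR-18a and miR-92a are open nearly throughout.

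Within primary tumors the question was whether the clusters differ between the epithelial and the spindle-cell compartment. All 7 members that were detected had higher means in carcinoma than in EMT-like areas, by 0.40 to 0.88 on the log2 scale, but none passed the test, and the groups overlapped for every one. miR-19a, a member of the miR-19 seed group, had the largest difference. Its values in carcinoma were 463, 593, 623, 318 and 422, and in EMT-like areas they ranged from 128 through a median of 241 to 567. Only 2 carcinoma samples exceeded all 7 EMT-like samples. The log2 fold change was 0.88 (SE 0.28) with an adjusted p of 0.121 in the limma fit across 583 probes.

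Across all probes 0.172% were called in this comparison, and the median difference over the whole panel was -0.16 (log2), against 0.75 for the 7 detected members. Read against that share, 0 of 9 members is not a difference. Here and below, the median over all probes includes many probes under their limit, whereas the 7 members were chosen as detected. At an unadjusted p under 0.05, 4 of the 9 members and 81 of the 583 probes would be listed. The 4 animals with both kinds of area gave the same picture with 1 exception: miR-17/miR-106a, miR-19a, miR-19b, miR-20a/miR-20b, miR-93 and miR-25 were each higher in carcinoma in 3 of 4 animals, and miR-106b in 2 of 4. In the sample labelled with 3 animals, miR-17/miR-106a was 2.11 higher in carcinoma on the log2 scale, the largest of the 4 differences. Animal identifiers come in 2 forms, with letters or with digits only, and the miR-25 difference was 1.13 in the lettered set (3 against 2 samples) and 0.14 in the numbered set (2 against 5). The differences of miR-93 (1.09 and 0.01), miR-17/miR-106a (1.18 and 0.30) and miR-20a/miR-20b (1.08 and 0.19) likewise lay mainly in the lettered set. For miR-19a the sets gave 0.83 and 0.64, for miR-19b 1.07 and 0.57, and for miR-106b 0.39 and 0.14.

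The next question was whether the clusters differ between the metastases and the tumors they came from. On the log2 scale under TMM, lung metastases held the highest mean of the 7 conditions for 6 of the 9 members: miR-17/miR-106a, miR-19a, miR-19b, miR-20a/miR-20b, miR-93 and miR-25. For miR-93 and miR-25 the mean normalized value was higher in carcinoma (406 against 403, and 1991 against 1852). The metastasis ranges of these 6 overlapped those of the next condition in every case. The rank over normal lung depends on the scaling. Without scaling, or with lanes set on the 4 mRNA control probes, 0 of the 7 detected members were higher in metastases than in normal lung. miR-19b, the other miR-19 member, had the largest difference from PT. It measured 403, 345, 300 and 332 in the metastases and ranged from 67.9 through a median of 210 to 313 in the 12 PT samples. Of the 4 metastases, 3 exceeded all PT samples. The log2 fold change was 0.94 (SE 0.46) with a limma adjusted p of 0.327.

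miR-19a was close behind with metastasis values of 647, 620, 716 and 534 and a PT range of 128 to 623. Its log2 fold change was 0.93 (SE 0.28) with an adjusted p of 0.0699, the smallest among the members in the limma fit. No member was called against PT, where 3.09% of all probes were. The 7 detected members had log2 fold changes of 0.40 to 0.94 with a median of 0.56, while the median over all probes was 0.00. In each of the 4 animals that gave both a metastasis and a primary area, every one of the 7 was higher in the metastasis. The smallest such difference was 0.16 for miR-93 and the largest was 1.83 for miR-19a. Carcinoma and EMT-like areas of an animal were averaged here, and some animals gave an EMT-like area only. Against carcinoma alone, in the sample labelled with 3 animals, miR-17/miR-106a, miR-20a/miR-20b, miR-106b, miR-93 and miR-25 were lower in the metastasis (miR-25 2319 against 3172). There miR-19a and miR-19b were higher. In the other animal with a carcinoma sample, miR-25 was lower (1584 against 1634) and the rest of the 7 were higher. The directions against PT rest on the scaling: without any scaling between lanes, 3 of the 7 had a positive difference, while the other 3 scalings left all 7 positive. Erythroid miRNAs (miR-144, miR-451, miR-486) summed to 348 to 533 in metastases and 83.7 to 297 in PT samples, with 3 of 3 above the limit in some lane of both. Of the 7 epithelial markers, 6 had positive differences with a median of 2.26, and miR-203 was called (2.62, adjusted p 0.0167). Of the 5 mesenchymal markers, 4 had negative differences, and both arms of miR-199a were called lower (-1.44 and -1.39, adjusted p 0.00711 and 0.00538). The part of these markers in the members' differences was not tested.

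**Figure D2:**
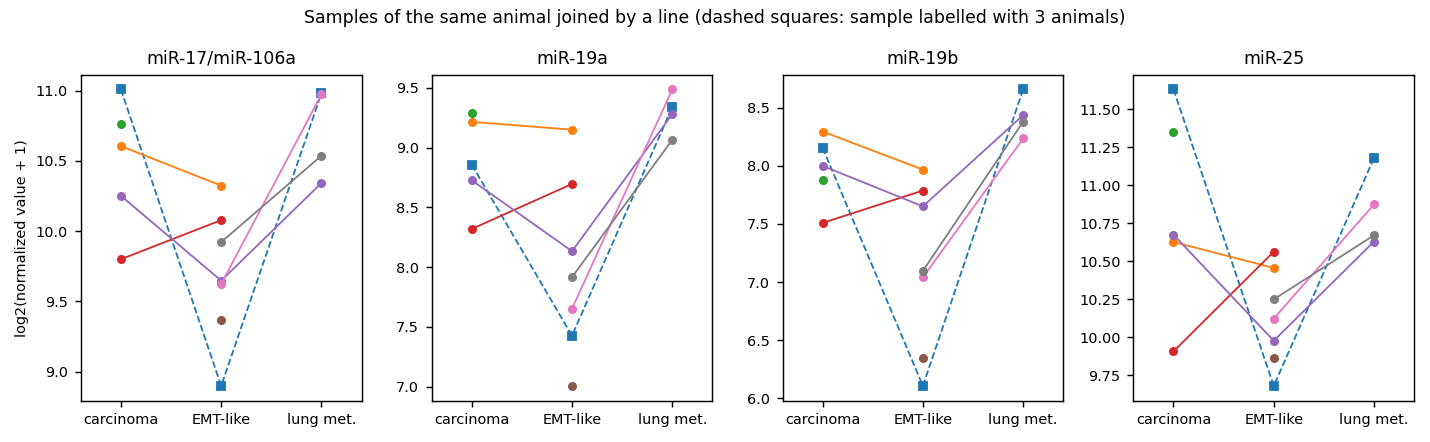
Each panel gives 1 member as log2(normalized value + 1) in carcinoma, EMT-like and lung metastasis samples, with samples of an animal joined and the sample labelled with 3 animals drawn as dashed squares. Lines to lung metastasis run upward from the EMT-like area in all 4 animals for each member shown, whereas lines from carcinoma to EMT-like run both ways.

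Set against EMT-like areas alone, a comparison added after the data were seen, miR-19a was higher in metastases and was the only member called. The 4 metastases measured 534 to 716, a mean of 629 ± 75.1 (SD, n = 4), and the 7 EMT-like areas averaged 286 ± 154 (SD, n = 7). Of the 4 metastases, 3 lay above every EMT-like sample. The log2 fold change was 1.29 (SE 0.30) with a limma adjusted p of 0.0131, and 7.72% of all probes were called, 2.74% as higher in metastases, so 1 of 9 members is near the background share. Without lung metastasis replicate 1 the adjusted p was 0.053, and the call was also lost without scaling (0.404), with scaling by the 4 mRNA control probes (0.493) and in a fit of the compared groups only (0.0601). For miR-19a the groups overlapped, whereas miR-17/miR-106a, miR-19b and miR-25 did not overlap, with all 4 metastases above all 7 EMT-like samples, but their limma adjusted p-values were 0.0929, 0.131 and 0.175. The share of all probes without overlap was not counted, here or in the other comparisons, so non-overlap is not read as particular to the members. In the 4 animals with both, miR-19a was higher in the metastasis by 1.15 to 1.91 on the log2 scale. Epithelial marker sums moved in the same direction, 2509 to 4671 in metastases and 59.4 to 1758 in EMT-like areas, and their part was not tested.

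Against NMG the question was whether tumor areas carry more of the clusters than the gland. In carcinoma, 6 of the 9 members had a positive difference, and miR-93, which has the seed of miR-17, was the only 1 called higher. Of all probes 29.3% were called there, and 5.49% were called higher. Carcinoma samples measured 580, 411, 532, 249 and 258, and the NMG samples measured 175 and 169. The groups did not overlap, with means of 406 ± 153 (SD, n = 5) and 172 ± 4.11 (SD, n = 2). The log2 fold change was 1.15 (SE 0.42) with a limma adjusted p of 0.0403. In the deposited values, before scaling, NMG stood at 424 and 455 and carcinoma at 189 to 556, so that the difference was turned to -0.42 without scaling. The call was held in 8 of 17 settings. It was lost without carcinoma replicate 1, 2 or 3 and without NMG replicate 1 or 2, which left 0 members called, while without carcinoma replicate 4 there were 2 called members.

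miR-17/miR-106a also did not overlap between carcinoma (890 to 2061) and NMG (610 and 801), with a log2 fold change of 1.04 (SE 0.47) and an adjusted p of 0.114. miR-25 stood at 959 to 3172 in carcinoma against 794 and 1127 in NMG, with an adjusted p of 0.0771. The miR-19 pair and miR-106b were nearer to NMG, with log2 fold changes of 0.27, 0.20 and -0.04. In EMT-like areas none of the 9 members was called, where 24.9% of all probes were, and the 7 detected members lay between -0.62 and 0.52. The member with the largest fitted difference there was miR-92a, which was under its limit in all 9 lanes, so no fold is given. The 2 NMG samples enter both of these comparisons.

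All directions against normal tissue depend on how lanes are set to a common scale, since normal lanes held several times more signal. Across TMM, no scaling, the 4 mRNA probes, the 100 most abundant miRNAs and the miRNA total, the median carcinoma difference of the 7 detected members ran from -0.73 to 1.74. The number of them with a positive difference was 6 with TMM, 0 with no scaling, 3 with the mRNA probes and 7 with each of the others. The median over all probes moved with it, by -1.15 to 0.57 from its TMM value of -0.68. Taken relative to that median, the members' median lay higher in all 5 scalings, by 1.09 to 1.85 in carcinoma and by 0.06 to 1.16 in EMT-like areas.

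**Figure D3:**
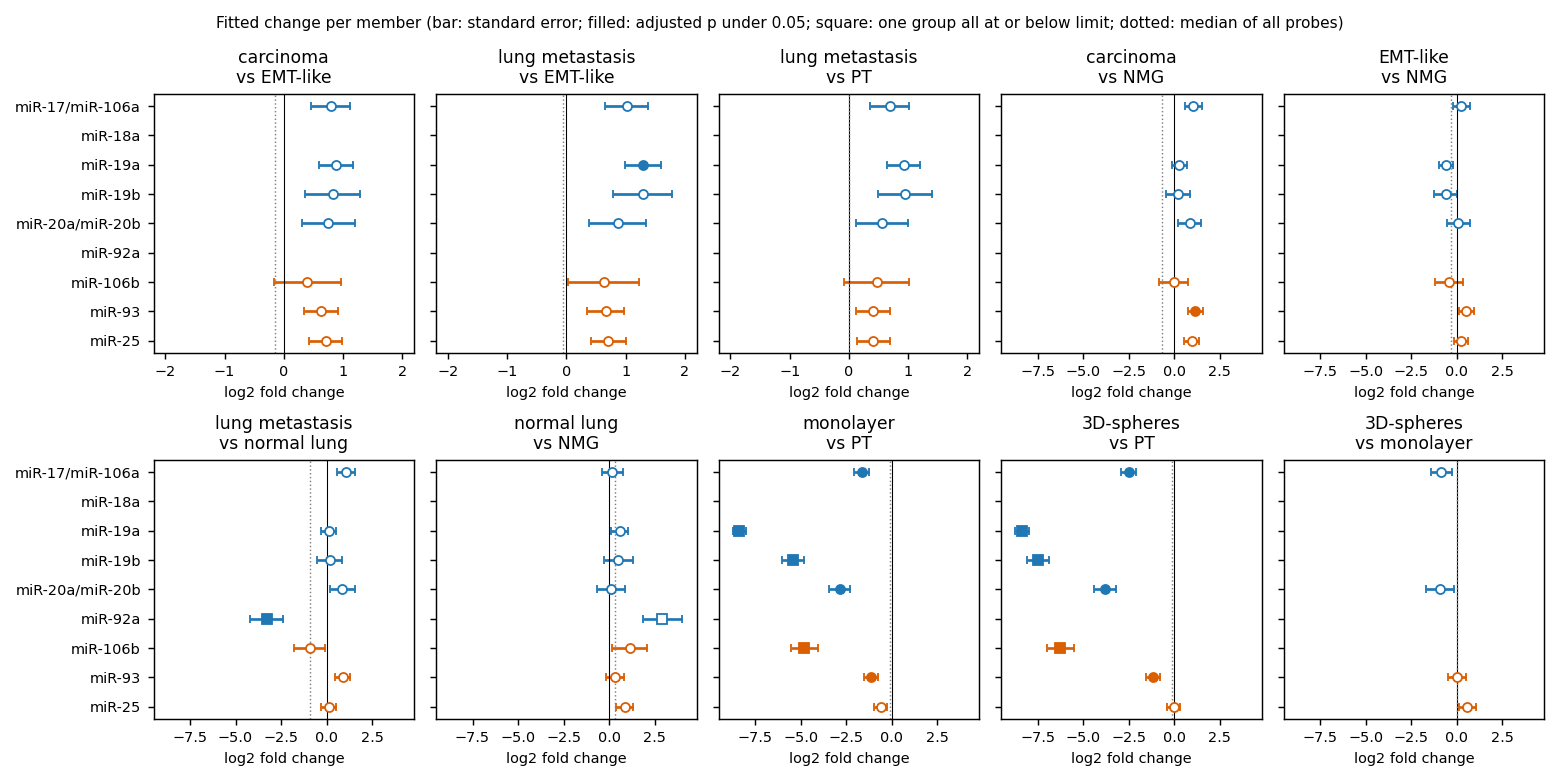
Points give the fitted log2 fold change of each member in the 10 comparisons (horizontal axis, narrower in the first 3 panels) with bars for the standard error, filled where called, square where 1 group lay wholly at or below the detection limit, and a dotted line at the median of all probes; members under the limit in both groups are not drawn. Filled points gather in the comparisons of monolayer and 3D-spheres with PT, and the tumor comparisons hold 1 filled point at most among members detected in both groups.

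In lung the question was whether metastases differ from normal lung. miR-92a was called lower in lung metastases than in normal lung. Its deposited values were 54 and 85 in normal lung and -5 to 4 in the 4 metastases, all of which were under the limit. Taking the detection limit for the metastases, it was at least 1.54-fold lower there under TMM. The limma adjusted p, from the fit with negative values set to 0, was 0.00623, and 42.2% of all probes were called lower in this comparison. The call held in 12 of 16 settings. It was lost with scaling by the 100 most abundant miRNAs (adjusted p 0.183) or the total (0.0896), in a fit of the compared groups only (0.0616) and without normal lung replicate 1 (0.0798). miR-18a was called as well (adjusted p 0.0071), but all 6 lanes were under the limit, so no fold is given. The call rests on a deposited value of 15 in normal lung replicate 2, the lane with the most signal, and -4 in replicate 1. Against NMG, miR-92a in normal lung was at least 5.02-fold higher, with an adjusted p of 0.0673 that missed the threshold.

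The other 7 members were not called between metastases and normal lung, where 49.2% of all probes were. miR-17/miR-106a measured 1298 to 2021 in metastases and 757 and 825 in normal lung, without overlap, with a log2 fold change of 1.08 (SE 0.49) and an adjusted p of 0.074. miR-106b was the only one of the 7 with a negative difference. It stood at 195, 221, 263 and 220 in metastases and at 401 and 460 in normal lung, again without overlap, with a log2 fold change of -0.94 (SE 0.83) and a limma adjusted p of 0.381. Neither did miR-20a/miR-20b (1723 to 2822 against 1121 and 1425) and miR-93 (258 to 500 against 203 and 225) overlap. Their log2 fold changes were 0.86 and 0.87, with limma adjusted p-values of 0.312 and 0.0996. As with NMG the direction follows the scaling, with 6 of 7 positive under TMM, 0 under no scaling or the mRNA probes, and 7 under the other 2, and members called ranged from 2 under TMM to 6 under each of the other 4. In those 4 settings the median over all probes moved by -1.72 to 0.87. Endothelial miR-126 summed to 67772 to 70141 in normal lung and erythroid miRNAs to 49121 to 55994, far above any other condition, and their part in these differences was not tested.

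Between normal lung and NMG none of the 9 members was called, against 11.7% of all probes. All 7 detected members had positive fitted differences under TMM, from 0.09 to 1.13, but 2 and 1 of them were positive when lanes were scaled on the top 100 miRNAs and on the total. With 2 lanes in each group, miR-19a, miR-19b, miR-106b, miR-93 and miR-25 did not overlap under TMM, all higher in normal lung. Of all 583 probes, 347 had a positive and 229 a negative fitted difference. The share without overlap was not counted, so this is not read as a result about the members. The difference between tumor and normal tissue, taken for the lung minus the mammary site, was not called for any member in a test added after the data were seen, where 67 of 583 probes were called. The smallest adjusted p among the members was 0.111, for miR-18a, which was under its limit throughout.

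**Figure D4:**
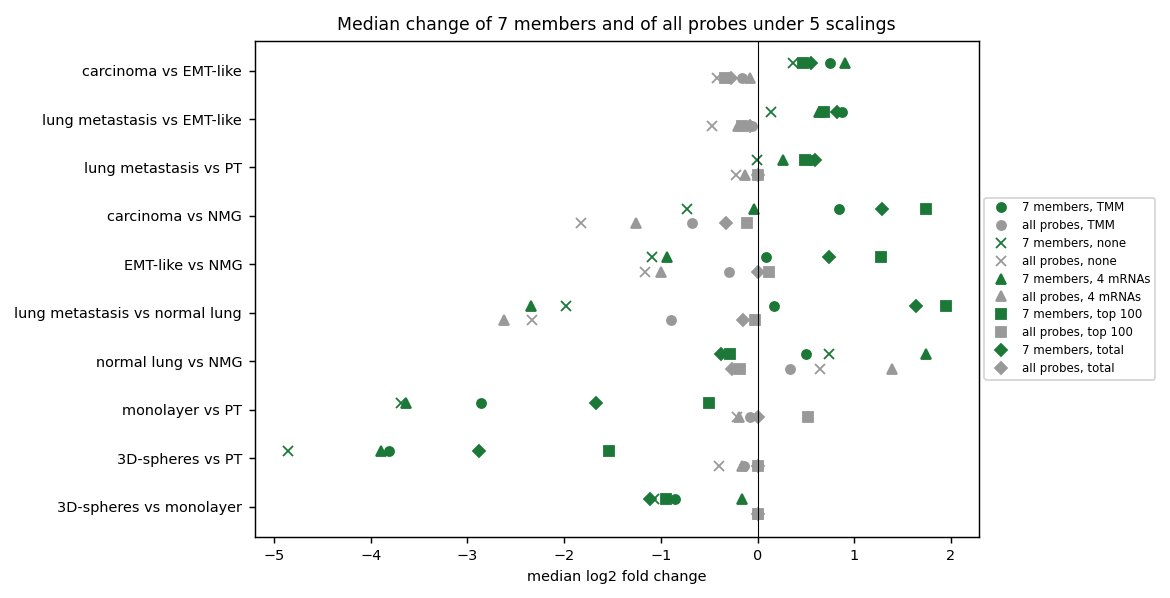
The median log2 fold change on the horizontal axis is shown for the 7 members detected in tissue (green) and for all probes (grey) under 5 ways of setting lanes to a common scale, given by the symbols. Green symbols lie on both sides of 0 in the comparisons with normal tissue and grey symbols move along with them, whereas the members stay on the positive side between carcinoma and EMT-like areas and on the negative side in cultures.

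Of the 9 members, 6 were called lower in the monolayer and 6 in 3D-spheres than in the tumors the same cells form, though for some the call or direction depended on the scaling. Of all probes 22.5% were called in each of these comparisons, with 18.4% lower and 4.12% higher in the monolayer and 18.7% lower in spheres. The 2 comparisons share the 12 PT samples, and the sphere comparison was added after the data were seen. miR-25, the last member of the miR-106b~25 transcript, was not called in either, and neither were miR-18a and miR-92a, which were under their limits in all of these lanes.

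The miR-19 pair and miR-106b dropped under the detection limit. The folds given for them are bounds set with that limit. Their adjusted p-values come from the fit with negative values set to 0 and do not test the bounds. miR-19a had deposited values of -2 and -5 in the monolayer and -9 and -7 in spheres, and 141 to 651 in PT samples. It was at least 9.48-fold lower in the monolayer (limma adjusted p 4.54e-14) and at least 10.5-fold lower in spheres (adjusted p 4.54e-14). miR-19b, with deposited values of 11, -9, -5 and -4 in the 4 cultures, was at least 5.16-fold lower in the monolayer (adjusted p 4.91e-07) and at least 5.68-fold lower in spheres (adjusted p 2.08e-09). miR-106b, with deposited values of 21, -3, 2 and -4, was at least 4.68-fold lower in the monolayer (adjusted p 2.4e-05) and at least 5.15-fold lower in spheres (adjusted p 6.29e-07). These 3 members did not overlap between culture and PT lanes, and their calls held in all 24 settings tried for each comparison.

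The members that stayed detectable in culture fell less evenly. miR-20a/miR-20b measured 891 and 51.0 in the monolayer, 110 and 112 in spheres, and 852 to 3113 in PT samples. Both sphere lanes and monolayer replicate 2 lay below every PT sample, whereas monolayer replicate 1 lay inside their range. The log2 fold change was -2.86 (SE 0.59, limma adjusted p 0.000746) for the monolayer and -3.81 (SE 0.59, adjusted p 2.61e-05) for spheres. miR-17/miR-106a followed the same order, with 811 and 133 in the monolayer, 160 and 206 in spheres, and 476 to 2061 in PT samples. Its log2 fold change was -1.66 (SE 0.43, adjusted p 0.00628) for the monolayer and -2.51 (SE 0.43, adjusted p 9.75e-05) for spheres. These calls depended on the scaling. With scaling by the 100 most abundant miRNAs, miR-20a/miR-20b stood at -0.50 (adjusted p 0.51) in the monolayer and at -1.54 (adjusted p 0.0156) in spheres, and miR-17/miR-106a at -0.24 (adjusted p 0.704) in spheres. With scaling by the total, miR-17/miR-106a stood at -0.47 (adjusted p 0.394) in the monolayer.

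miR-93 stood at 231 and 75.4 in the monolayer, 106.3 and 161 in spheres and 152 to 580 in PT samples, so 1 lane of each culture overlapped PT. Its log2 fold change was -1.16 (SE 0.38, limma adjusted p 0.0297) for the monolayer and -1.17 (SE 0.38, adjusted p 0.0268) for spheres. Its direction is not settled, since scaling by the 100 most abundant miRNAs gave 1.21 for the monolayer and 1.10 for spheres, and scaling by the total gave 0.04 for the monolayer. With the former scaling miR-17/miR-106a in the monolayer also turned to 0.71. The miR-93 call in spheres was lost without sphere replicate 1 (adjusted p 0.339) or 2 (0.0619), and with scaling by the mRNA probes (0.236) or the total (0.732). miR-25 measured 1559 and 528 in the monolayer, 1291 and 1403 in spheres and 819 to 3172 in PT samples. Its log2 fold change was -0.60 (SE 0.36, 95% interval -1.35 to 0.15, adjusted p 0.264) for the monolayer and -0.03 (SE 0.36, interval -0.78 to 0.72) for spheres. The direction of miR-25 also followed the scaling. With the 100 most abundant miRNAs its difference was 1.77 for the monolayer and 2.25 for spheres. With the total it was 0.60 and 0.91.

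Monolayer replicate 2 carried much of the monolayer result. Without it, 3 members were called against PT, the miR-19 pair and miR-106b, and the miR-17/miR-106a, miR-20a/miR-20b and miR-93 differences were -0.36, -0.81 and -0.35. Without replicate 1, 7 members were called. Between 3D-spheres and monolayer no member was called, where 4.63% of all probes were, but 4 were called without monolayer replicate 2. The member with the largest fitted difference, miR-19b, was under its limit in all 4 lanes. Both endothelial markers were at 0 in all 4 culture lanes and summed to 819 to 3114 in tumor and metastasis lanes, and the 3 erythroid markers were under their limit in cultures. The 5 immune-cell markers summed to 764 to 1130 in cultures and 572 to 1243 in PT samples. Of these, 1 was called higher and 2 lower in the monolayer, and 2 higher and 2 lower in spheres. miR-155 was called higher in both cultures (1.03, limma adjusted p 0.00881, and 1.29, adjusted p 0.00133). The markers called lower in the monolayer were miR-142-3p and miR-223 (limma adjusted p 0.000115 and 4.17e-10), each under its limit in both lanes. The 4 muscle markers summed to 104 to 169 in cultures and 10.5 to 75.2 in PT samples. Their part in the differences of the clusters was not tested, and the cultures also had the least signal per lane.

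Differences between 2 members within a lane do not depend on how lanes are scaled, and they showed where single members of the clusters parted. The deposited miR-25 to miR-20a/miR-20b ratio was 0.67 to 1.05 in all 16 tumor and metastasis lanes and 0.76 to 0.84 in NMG. It was 1.502 and 1.20 in normal lung. In culture it was 1.75 and 10.4 in the monolayer and 11.8 and 12.6 in spheres, so all 4 culture lanes lay above every tissue lane. The largest ratios are imprecise, since deposited miR-20a/miR-20b was low there. It was 25 in monolayer replicate 2 (limit 16.9) and 63 and 45 in spheres (limits 19.5 and 11.1). Only the shift between lanes can be read from such a ratio, since each probe has its own capture. This pair and the pairs of miR-93 with miR-25 and of miR-19a with miR-20a/miR-20b were added after the data were seen, and none of the 3 was tested.

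miR-93 and miR-20a/miR-20b, which have the same seed, behaved likewise, with a ratio of 0.12 to 0.25 in the 20 tissue lanes, 0.26 and 1.48 in the monolayer, and 0.97 and 1.44 in spheres. The higher culture ratios rest on the same low miR-20a/miR-20b values. The 2 members of 1 transcript, miR-93 and miR-25, kept closer together. Their ratio was 0.12 to 0.26 in tissue, 0.15 and 0.14 in the monolayer and 0.08 and 0.11 in spheres. The third pair, miR-106b to miR-17/miR-106a, separated the normal lung, at 0.53 and 0.56, from every other tissue lane. It was 0.20 and 0.40 in NMG and 0.09 to 0.25 in the 16 tumor and metastasis lanes, and could not be taken in cultures, where miR-106b was under its limit. Within miR-17~92, the miR-19a to miR-20a/miR-20b ratio was 0.43 and 0.49 in normal lung, 0.26 and 0.42 in NMG and 0.14 to 0.36 in tumor and metastasis lanes.

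**Figure D5:**
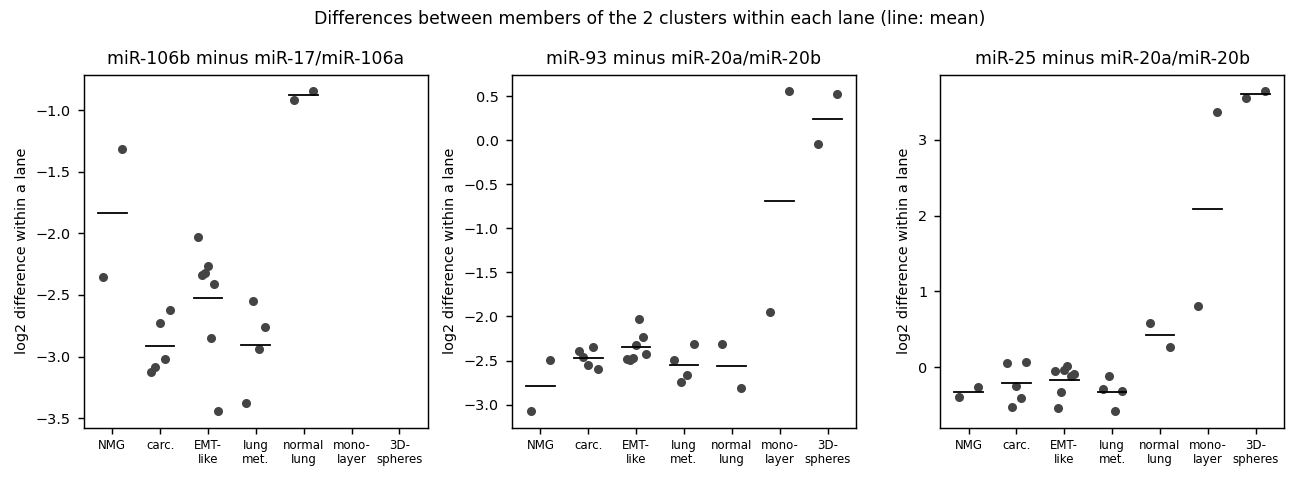
Each point is 1 lane and gives the log2 difference between 2 members within that lane, by condition, with lines at the means and no points where a member was under its detection limit. The right and middle panels place the cultures above the tissues, with monolayer replicate 1 nearest to them, and the left panel places normal lung above all other tissue lanes.

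The planned within-lane tests compared tumor compartments only, without regard to shared animals, and none passed the threshold. For miR-106b minus miR-17/miR-106a the mean log2 difference was -2.92 ± 0.23 (SD, n = 5) for the carcinoma lanes, against -2.52 ± 0.47 (SD, n = 7) for EMT-like lanes (exact two-sided permutation p = 0.129). It was -2.90 ± 0.35 (SD, n = 4) in metastases and -2.69 ± 0.43 (SD, n = 12) in PT (exact permutation p = 0.376). For miR-93 minus miR-20a/miR-20b the exact permutation p was 0.189 for carcinoma against EMT-like areas, and 0.115 for metastases against PT. Adjusted over these 4 tests, the values were 0.252, 0.376, 0.252 and 0.252. Within the 4 animals with both kinds of primary area, a comparison added after the data were seen, miR-106b minus miR-17/miR-106a was lower in carcinoma in 4 of 4, by -1.10 to -0.36 on the log2 scale. The exact two-sided permutation p over animals was 0.125, the smallest that 4 animals allow. The other 3 comparisons within animals went both ways (exact permutation p of 0.375 to 1.0). The miR-25 minus miR-92a pair could be taken in normal lung alone.

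Over the 7 condition means, each centred on its own mean on the log2 scale, the probes most like the mean of the 4 detected miR-17~92 members were miR-196b, miR-340-5p and miR-200b, with mean absolute differences of 0.60, 0.68 and 0.72, where the median of 189 candidate probes was 1.86. For the mean of the 3 miR-106b~25 members they were miR-301a, miR-193b and miR-1937c, at 0.28, 0.30 and 0.31, against a median of 1.19. The members themselves differed from the mean of their cluster by 0.66 to 1.44 and 0.59 to 1.44, so the cluster means are mixtures of unlike patterns.

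Related miRNAs outside the clusters were followed as lists. Of the 4 seed relatives of miR-25 and miR-92a (miR-32, miR-92b, miR-363 and miR-367), 3 were called lower in metastases than in normal lung, where 42.2% of all probes were and where directions follow the scaling. miR-363, one of them, was above its limit in 1 of the 6 lanes. The largest fitted change was that of miR-92b, which was above its limit in both normal lung lanes and in none of 4 metastases (limma adjusted p 2.09e-05). miR-32 was under its limit in all 4 cultures and above it in all 12 PT samples, and was called lower in the monolayer (adjusted p 0.0347) and in spheres (adjusted p 0.0151). On the paralogous chromosome X cluster, miR-18b was above its limit in 1 of 2 normal lung lanes and in no metastasis.

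The 29 miRNAs known to be repressed by MYC, which activates miR-17~92, gave a second list. It shares miR-150 and miR-146a with immune cells, which also express them. In carcinoma against NMG 13 of the 29 were lower and 3 higher, where 23.8% of all probes were lower, and in EMT-like areas 15 were lower and 2 higher, where 20.4% were lower. The largest decrease was that of miR-150, a lymphocyte miRNA, at -4.95 and -4.92 (adjusted p 1.8e-07 and 9.62e-08), and the largest increase was that of let-7e, at 1.33 and 1.26. In metastases against normal lung 20 of 29 were lower, against 42.2% of all probes, and none higher, with miR-29c at -5.24 (adjusted p 2.81e-09). These counts stand beside the scaling shifts given for normal tissue.

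Between carcinoma and EMT-like areas none of the 29 was called, and in metastases against PT, where 3.09% of all probes were called, 1 was higher, miR-150 at 2.65 (adjusted p 5e-05), and 1 was lower, miR-23a at -1.34 (adjusted p 0.0167). In culture the list was low together with the clusters: 21 of 29 were lower in the monolayer and 21 in spheres than in PT, against 18.4% and 18.7% of all probes. Here and in the comparisons above, the share over all probes includes many under their limit, which can hardly be called lower. Most of the 29 were above their limit in every PT sample, so list and share are not like for like. The largest fitted changes were those of miR-29b in the monolayer and miR-26a in spheres, each under its limit in both lanes. miR-15b was the 1 list member that was higher in the monolayer, at 1.03 (adjusted p 0.0134).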

How the data were processed

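Mouse miRNA levels were measured with the nCounter assay in 24 lanes. The authors deposited 1 table of background-subtracted counts, here classed as other, from each of which the average of the lane's 6 negative controls had been removed, so that 35.2% of miRNA values lie below 0 and the lowest is -20. Depths differ between lanes as given above, and the precision of low values is limited by the detection limit of 4.0 to 21.4 counts. The submitters' processing notes name Partek. The scaling of these values, if any, is not given in the sources used here, and the values showed none.

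Values were multiplied by TMM factors (reference carcinoma replicate 2, trimming 30% on log ratios and 5% on levels, with negative values set to 0) and taken as log2(value + 1). All 7 conditions were fitted together with limma 3.58.1 (R 4.3.3, trend), with Benjamini-Hochberg adjustment over the 583 mouse and viral probes above 0 in some lane, and probes were called at an adjusted p under 0.05. Fold changes are on the log2(value + 1) scale and understate the change of low values. PT is the mean of its 12 samples. Folds against a group under its limit in every lane are bounds, set with that limit in each lane on the scale of value + 1. The p-values beside them are those of the limma fit and do not test the bounds. Within-lane differences used deposited values above the limit and exact permutation tests (scipy 1.17.1, Python 3.11.15). The limma step was tested on simulated data.

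The members, lists and rules were chosen with earlier results of these data known. The rule for named miRNAs took all members, with fold and adjusted p for those called or, where none was called, for the member with the largest change, the 3 most alike probes above the limit in at least 12 lanes for each cluster, and the called list members with the largest changes. Other members were added where their groups did not overlap, without a count of how many of all probes separated in the same way. P-values refer to these samples only. Those of limma use a spread pooled over the 7 conditions and moderated across probes, so the small groups add little to it. Samples of the same animal were taken as independent in the main fit. Pairing comes from animal labels: deviations from group means over 196 probes correlated at a median of 0.103 within an animal (10 pairs, -0.31 to 0.30), 0.08 between animals of the same form of identifier and -0.14 between forms. Alternatives were 4 other scalings, a filter (at least 20 in at least 2 samples), a higher background (2 SD of the negative controls removed as well), a pseudocount of 10, fits of the compared groups only, the animal or culture number as a block, the form of identifier as a term, and omission of samples 1 at a time. Within groups no pair of lanes shared more than 5.38% identical values.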

Additional observations from a re-analysis of the deposited data

How the results depend on the processing

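Among the alternatives for single members and for medians, 548 values kept their direction and side of the threshold or moved by less than the spread, 30 no longer passed, 6 newly passed, 35 moved further and 5 reversed. Counts of called members moved more often. For lung metastasis against PT (0 called), 1 was called with scaling by the 100 most abundant miRNAs, with scaling by the total, with the filter and with the form of identifier as a term. For carcinoma against NMG (1 called), 0 were called with the mRNA probes, the higher background or only the compared groups, 3 with the total and 5 with the top 100. For EMT-like areas against NMG (0 called), there were 1 with the total, 2 without scaling and 3 with the top 100. For lung metastasis against normal lung (2 called), there were 6 with each other scaling and 1 with the filter or the higher background. For normal lung against NMG (0 called), there were 2 without scaling, with the mRNA probes or with a pseudocount of 10, and 1 with the higher background. For lung metastasis against EMT-like areas (1 called), there were 0 without scaling or with the mRNA probes, and 2 with the higher background, a pseudocount of 10 or only the compared groups.

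Reversals were miR-93 in carcinoma against NMG (-0.42 without scaling), miR-17/miR-106a (0.71) and miR-93 (1.21, adjusted p 0.00378) in the monolayer with the top 100, miR-93 in the monolayer with the total (0.0357), and miR-93 in spheres with the top 100 (1.10, adjusted p 0.00808). miR-25 in cultures, not called under TMM and so not counted here, also turned positive with the top 100 and with the total. The cause of these reversals was not tested.

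Leaving out each sample gave 0 to 1 called members for carcinoma against EMT-like areas and 0 to 1 for lung metastasis against PT (1 without EMT-like replicate 2 in both), 0 to 2 for carcinoma against NMG, 0 for EMT-like areas against NMG, 1 to 3 for lung metastasis against normal lung (1 without either normal lung sample), 0 to 1 for normal lung against NMG (1 without normal lung replicate 1), 0 to 4 for 3D-spheres against monolayer, 3 to 7 for monolayer against PT, 0 to 1 for lung metastasis against EMT-like areas and 5 to 6 for 3D-spheres against PT. Where this left 1 sample in a group, the remaining one was taken to have the spread of the other conditions. The replicate block by animal or culture number changed no call of a member, with 6 called for monolayer against PT and an adjusted p of 0.0402 for miR-93 in carcinoma against NMG. The comparisons of lung metastasis with EMT-like areas and of 3D-spheres with PT, and the test between the lung and mammary sites, were chosen after seeing the data. Signal over background limits miR-18a and miR-92a in nearly every lane, and miR-19a, miR-19b and miR-106b in cultures.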
